A study of Mus musculus with 12 samples.

Results

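The 32 genes described here make, take up, sense, store and export cholesterol. They are 19 genes of sterol synthesis, 5 of the sterol-sensing SREBP machinery, 4 that move or esterify sterols inside the cell, and 4 of the LXR branch. They were taken by gene symbol from a list made with earlier results of these data known, and all 32 were among the 20540 genes of the deposited table. RNA sequencing measured them in mouse oligodendrocyte progenitor cells (OPCs), the dividing precursors of the myelin-forming oligodendrocytes. The cells came from C57BL/6 brains at postnatal day 6 to 7, were grown in a proliferation medium the labels call SATO+PDGFRA, and all received a biotin-tagged miRNA mimic. The 4 groups of 3 libraries each were pulldown RNA with miR-27a mimic, pulldown RNA with control mimic, whole-cell RNA with miR-27a mimic and whole-cell RNA with control mimic. A mimic is a short double-stranded RNA that loads cells with far more of one miRNA than they make themselves, and a pulldown recovers RNA that stays with the biotin tag. No untransfected group and no library of beads alone was analysed here, and the labels give no sequence for the control mimic. The labels number the replicates without naming cultures of their own for them, so each p-value reflects the spread among these libraries alone, which may be technical.

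Cholesterol is built from acetyl-CoA through mevalonate, isoprenoids, squalene and lanosterol, and cells short of it release the SREBP transcription factors from the endoplasmic reticulum, where SCAP and the INSIG proteins otherwise hold them. Cells rich in sterol metabolites instead activate the LXR receptors, which turn on export genes. Myelin is rich in cholesterol, and because lipoproteins cross the blood-brain barrier poorly, brain cells make most of their own.

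The miRNA and the matching sites in members with a full site are shown because the largest change among the 32 genes fell on one of them. Capitals mark the seed (bases 2 to 8, counted from the 5′ end) in the miRNAs and the searched motif in the sites, which for an 8mer is the match to bases 2 to 8 followed by an A opposite base 1, and for the 7mers shown the match to bases 2 to 7 followed by that A. The mature miRNAs are RefSeq sequences (GRCm38.p6), and the sites were read in the GENCODE annotation of GRCm38. The 2 mouse miR-27 miRNAs, encoded on the plus strand at chr8:84208727-84208747 and chr13:63300760-63300780, share the seed.
mmu-miR-27a-3p: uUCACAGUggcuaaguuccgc
mmu-miR-27b-3p: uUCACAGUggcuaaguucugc
0610007P14Rik site: tgggaacataACTGTGAAgccgc
Sc5d site: gacactgatcACTGTGAAttatc
Npc2 site: ctatggatccACTGTGAAggatg
Soat1 site: gtggccacttCTGTGAAagaag
Abcg1 site: ctgctattagCTGTGAAgtctg
Hsd17b7 site: aatgagtgttCTGTGAAttttt
Hmgcs1 site: gcgtttaattCTGTGAAgtttc

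The motifs searched, on the transcript strand only, were ACTGTGAA (an 8mer), and ACTGTGA or CTGTGAA outside an 8mer (7mers). The annotated 3′ UTR of 0610007P14Rik, the mouse homolog of the ERG28 sterol scaffold (named Erg28 by RefSeq; minus strand of chr12:85815448-85824550), holds its 8mer at base 399 of 666. Sc5d (minus strand of chr9:42251595-42264256) holds its 8mer at base 2454 of 3747, in 1 of 2 annotated 3′ UTRs. Npc2 (minus strand of chr12:84754562-84773152) holds its 8mer at base 360 of 2564, with a 7mer further along. The 4 genes with a 7mer shown are Soat1 (chr1:156424525-156474331, minus strand), Abcg1 (chr17:31057675-31117988, plus strand), Hsd17b7 (chr1:169949535-169969241, minus strand) and Hmgcs1 (chr13:119690379-119708260, plus strand). Besides these, Npc1 and Stard4 had a 7mer that is not printed here. A site of either kind was found in 9 of the 32 members (28.1%) against 32.8% of the 12459 tested genes with an annotated 3′ UTR, so the members as a group did not hold more sites than other genes. These matches are letters in an annotated UTR and do not show binding.

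Library totals recovered from the deposited values lay between 19995638 and 21899644 reads in pulldown miR-27a, 16341932 and 24972188 in pulldown control, 17441375 and 19106007 in whole-cell miR-27a, and 15548418 and 17591426 in whole-cell control libraries. At this depth 3 reads equal 0.116 to 0.2 CPM (counts of a gene scaled to a common library total), and every member had at least 1 CPM in every library. OPC markers were present: the summed level of 8 OPC genes was 3547 to 3704 CPM in pulldown miR-27a, 2985 to 3003 CPM in pulldown control, 1688 to 1721 CPM in whole-cell miR-27a and 1581 to 1631 CPM in whole-cell control libraries. Markers of other cells were present too, with no marker of any list at 0 in a whole group. The 12 oligodendrocyte markers summed to 4661 to 5664 CPM and 6104 to 6866 CPM in the pulldown groups (miR-27a and control) and to 11664 to 12113 CPM and 12229 to 12800.3 CPM in the whole-cell groups. The 12 astrocyte markers summed to 4239 to 4867 CPM and 5962 to 6142 CPM in the pulldown groups and to 7509 to 7538 CPM and 8907 to 8948 CPM in the whole-cell groups, so they were lower with miR-27a in both RNAs. Pulldown miR-27a replicate 2 stood apart from the other pulldown libraries on the third principal component of all genes. In bulk RNA, fewer cells of a type and less RNA per cell cannot be told apart.

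These genes were abundant. The median member had 132 CPM in the pulldown libraries and 149 CPM in the whole-cell libraries, against 25.5 CPM and 25.6 CPM for all tested genes. Per kilobase of transcript in whole-cell control cells, Apoe, the lipoprotein that carries cholesterol between brain cells, was highest at 1958 CPM per kb (range 1810.5 to 2096). Hmgcs1, which makes HMG-CoA, followed at 1081 CPM per kb (1056 to 1112), then Fdps at 565 CPM per kb and Cyp51 at 269.6 CPM per kb, and the ranges of these 4 genes did not overlap. The lowest were the LXR genes Nr1h3 (2.66 CPM per kb, 2.51 to 2.84) and Abcg1 (2.67 CPM per kb, 2.48 to 2.85), whose ranges overlapped. Of the SREBP machinery, Insig1 stood at 178 CPM per kb, Srebf1 at 24.6, Insig2 at 12.7, Scap at 9.6 and Srebf2 at 7.25 CPM per kb.

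With miR-27a mimic in place of control mimic, the sterol genes did not move as a block. In whole-cell RNA 12 of the 32 members rose and 6 fell, where 13.0% of all 13393 tested genes rose and 11.9% fell, 24.9% in all (limma on log2(CPM + 1), Benjamini-Hochberg adjusted p under 0.05 over all genes). The groups did not overlap for 14 members that were higher and 6 that were lower, against 20.3% and 18.4% of all genes. The members' median log2 change was 0.08, against 0.01 for all tested genes. In pulldown RNA 3 members rose and 3 fell, where 6.05% of 13586 tested genes rose and 7.06% fell, 13.1% in all. The groups did not overlap there for 5 members in each direction, against 14.4% of genes higher and 16.6% lower, and the median change was −0.04 against −0.00. Abundant genes are measured more precisely than the median gene, and the shares over all genes were not matched for abundance. With the replicate number as a block in pulldown RNA, 3 members rose and 6 fell, because Fdft1 (adjusted p = 0.0319), Npc1 (0.0167) and Apoe (0.0471) passed the threshold. Markers of cell types moved with the mimic as well: 4 of 8 OPC markers rose in pulldown RNA and 5 rose and 1 fell in whole-cell RNA, while 6 of 10 oligodendrocyte and 6 of 12 astrocyte markers tested fell in pulldown RNA and 4 of 11 and 7 of 12 in whole-cell RNA (1 of each list rose there). The part of these markers in the members' changes was not tested.

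Single libraries mattered for these counts. In whole-cell RNA 7 members rose without miR-27a replicate 1 and 15 rose without control replicate 2. In pulldown RNA 1 member rose without control replicate 3, and 5 rose without miR-27a replicate 2, the library that stood apart. There, 1 member fell without any 1 of the 3 control libraries or without miR-27a replicate 3, while 6 fell without miR-27a replicate 1 and 5 without replicate 2. Called in both RNAs in the same direction were Insig1, Lbr and Soat1, which rose, and 0610007P14Rik, Sc5d and Pmvk, which fell. The calls of 0610007P14Rik and Lbr held in both RNAs under every alternative run.

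**Figure D1:**
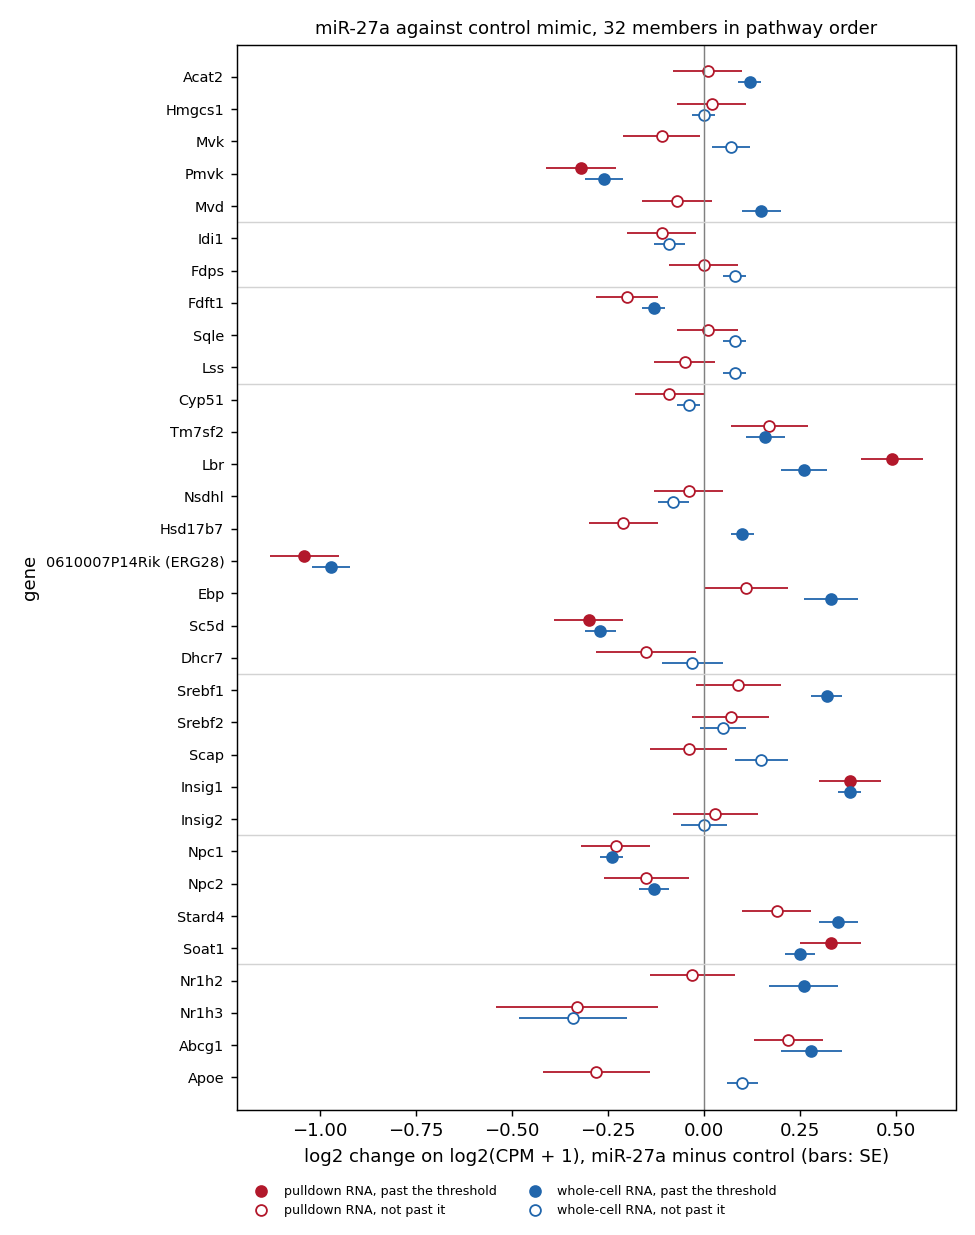
Log2 change with miR-27a against control mimic for the 32 members in pathway order, in pulldown RNA (red) and whole-cell RNA (blue), with standard errors; filled points passed an adjusted p of 0.05 and grey lines separate the pathway steps. Changes of both signs occurred among the synthesis genes, and the 0610007P14Rik change (−1.04 in pulldown RNA, −0.97 in whole-cell RNA) lay far from the rest.

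The largest change was the fall of 0610007P14Rik. Its yeast counterpart, Erg28, is a membrane scaffold that holds the enzymes of sterol methyl-group removal together. It had 61.1, 53.2 and 57.7 CPM in pulldown miR-27a and 124, 114 and 118 CPM in pulldown control libraries, a log2 change of −1.04 ± 0.09 (SE; adjusted p = 2.46e-06). In whole-cell RNA it had 39.1, 41.4 and 41.2 CPM with miR-27a and 83.8, 81.4 and 76.1 CPM with control mimic (−0.97 ± 0.05, adjusted p = 2.63e-12). Every miR-27a library was far below every control library of the same RNA.

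Sc5d, the desaturase that acts just before the last steps of the pathway, also fell in both RNAs. It had 173, 197 and 162 CPM in pulldown miR-27a and 238, 211 and 206 CPM in pulldown control libraries (−0.30 ± 0.09, adjusted p = 0.0413), and 164, 161 and 163 CPM in whole-cell miR-27a and 203, 192 and 195 CPM in whole-cell control libraries (−0.27 ± 0.04, adjusted p = 7.27e-06). The groups did not overlap in either RNA, but in pulldown RNA the margin between them was small. The pulldown call was lost without control replicate 1 (adjusted p = 0.215), 2 (0.0891) or 3 (0.0888) and without miR-27a replicate 3 (0.217). Npc2, the soluble lysosomal protein that hands cholesterol to NPC1, was the remaining member with an 8mer. It had 246, 185 and 216 CPM in pulldown miR-27a and 255, 212 and 252 CPM in pulldown control libraries, which overlapped (−0.15 ± 0.11, adjusted p = 0.386). In whole-cell RNA it fell, with 155, 158 and 152 CPM with miR-27a and 163, 174 and 173 CPM with control mimic (−0.13 ± 0.04, adjusted p = 0.014). That call was lost without control replicate 3 (0.0759), miR-27a replicate 1 (0.0502) or miR-27a replicate 3 (0.0804).

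All 3 members with an 8mer thus fell in whole-cell RNA and 2 of them in pulldown RNA. Over all tested genes with an 8mer, 16.8% fell in pulldown RNA and 29.6% in whole-cell RNA, against 5.7% and 9.2% of genes with no site, and the median changes of 8mer genes were −0.085 and −0.075. Of the 6 members with a 7mer and no 8mer, Npc1 fell in whole-cell RNA while Hsd17b7, Stard4, Soat1 and Abcg1 rose. Over all tested genes with only a 7mer, 15.7% fell and 11.6% rose there. In pulldown RNA Soat1 rose, where 8.8% of such genes fell and 6.1% rose. The 7mers of Hsd17b7 and Soat1 lie in 1 of 2 annotated 3′ UTRs and those of Stard4 and Abcg1 in 1 of 3. The 7mer of Npc1 lies in its only annotated 3′ UTR and that of Hmgcs1 in 2 of 2. Of the 23 members with no site, 8 rose and 2 fell (Fdft1 and Pmvk) in whole-cell RNA, and 2 rose and 1 fell in pulldown RNA. Of all tested genes with no site, 14.6% rose in whole-cell RNA and 6.6% in pulldown RNA, beside the shares that fell given above. With so few members a class, no test was made of the site classes among them.

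**Figure D2:**
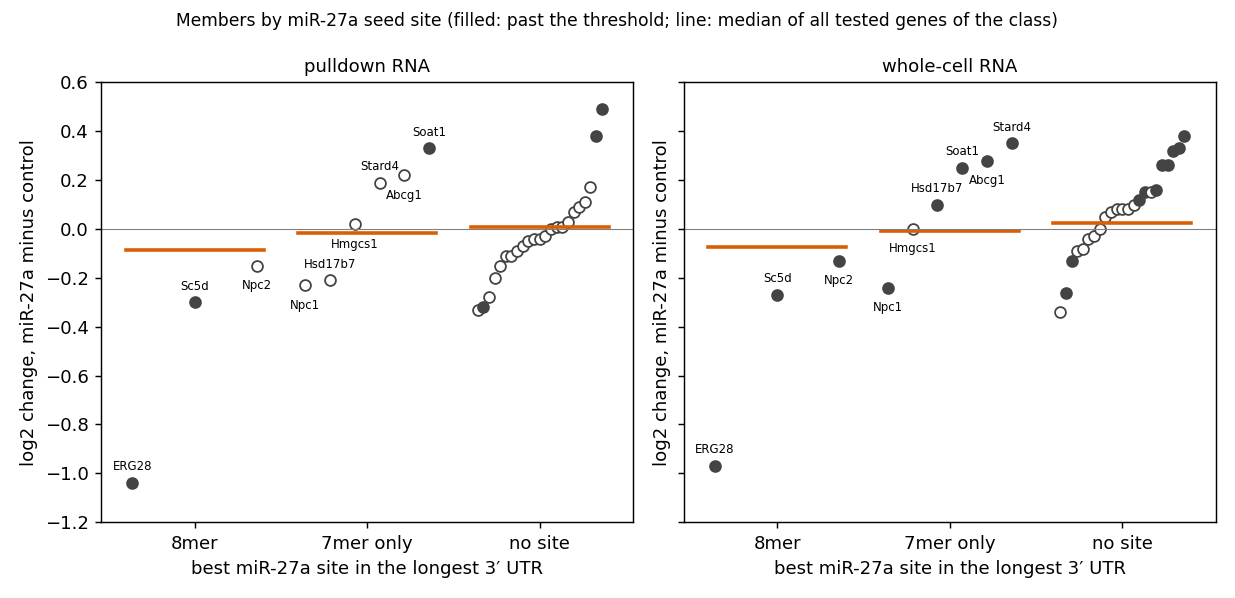
Log2 change with miR-27a against control mimic for members grouped by the best miR-27a site in the longest annotated 3′ UTR, in pulldown RNA (left) and whole-cell RNA (right); filled points passed an adjusted p of 0.05, and the orange line is the median of all tested genes of that class. The 3 members with an 8mer lay below 0 in both panels, while members with a 7mer lay on both sides of it.

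The mevalonate enzymes split. Pmvk, the kinase that makes mevalonate diphosphate, fell in both RNAs. It had 81.7, 66.1 and 73 CPM in pulldown miR-27a and 96.5, 85.3 and 93.2 CPM in pulldown control libraries (−0.32 ± 0.09, adjusted p = 0.0361), and 102, 98.1 and 98.8 CPM in whole-cell miR-27a and 110.2, 125 and 123 CPM in whole-cell control libraries (−0.26 ± 0.05, adjusted p = 0.000205). No miR-27a library reached the lowest control library in either RNA. The pulldown call was lost without control replicate 1 (0.169), 2 (0.0513) or 3 (0.147) or miR-27a replicate 3 (0.127). Acat2, the thiolase that starts the pathway, rose in whole-cell RNA by a small step, with 437, 427 and 413 CPM with miR-27a and 382, 384 and 404 CPM with control mimic (0.12 ± 0.03, adjusted p = 0.00944), a call lost without miR-27a replicate 1 (0.0804). In pulldown RNA its miR-27a libraries (342, 281 and 289 CPM) and control libraries (280.1, 315 and 308 CPM) overlapped. Mvd, which makes the first isoprenoid unit, rose in whole-cell RNA, with 198, 195 and 199 CPM with miR-27a and 159, 190.4 and 185 CPM with control mimic (0.15 ± 0.05, adjusted p = 0.0254). This call was lost without control replicate 1 (0.144) or any miR-27a library (0.0858, 0.0546 and 0.0894 for replicates 1, 2 and 3). In pulldown RNA Mvd had 137, 119.6 and 138 CPM with miR-27a and 144, 127 and 144 CPM with control mimic.

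The other early enzymes did not pass the threshold in either RNA. Hmgcs1 had 2191, 2389 and 2219.6 CPM in pulldown miR-27a and 2319, 2207 and 2192 CPM in pulldown control libraries, and 3681, 3889.8 and 3705 CPM in whole-cell miR-27a and 3851, 3656 and 3732 CPM in whole-cell control libraries, for log2 changes of 0.02 ± 0.09 and 0.00 ± 0.03. This abundant enzyme overlapped between mimics in both RNAs. The mevalonate kinase Mvk had 125, 101 and 130.3 CPM and 132, 116 and 137 CPM in pulldown miR-27a and control libraries, and 136, 137 and 145 CPM and 124, 143 and 130.3 CPM in whole-cell miR-27a and control libraries. Idi1, which isomerises the isoprenoid unit, had 105, 131 and 110.3 CPM and 121, 127 and 124 CPM in pulldown miR-27a and control libraries, and 190.3, 206 and 191 CPM and 221, 196 and 210.4 CPM in whole-cell miR-27a and control libraries. Both of these overlapped between mimics in both RNAs, and without control replicate 2 both passed the threshold in whole-cell RNA, Mvk as higher (0.0403) and Idi1 as lower (0.0178). In pulldown RNA Idi1 passed as lower without miR-27a replicate 2 (0.0489). The farnesyl diphosphate synthase Fdps had 669.6, 549.9 and 620.0 CPM and 653, 566 and 619 CPM in pulldown miR-27a and control libraries. In whole-cell RNA its miR-27a libraries (819.8, 831 and 823 CPM) lay above its control libraries (767, 785 and 791 CPM), with a log2 change of 0.08 ± 0.03 that missed the threshold (adjusted p = 0.0591) but passed with library totals (0.0306) and with limma voom (0.0305).

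Squalene synthase, squalene epoxidase and lanosterol synthase follow. Fdft1, the squalene synthase that commits isoprenoids to sterols, fell in whole-cell RNA, with 441, 459 and 455 CPM with miR-27a and 502, 498 and 488 CPM with control mimic (−0.13 ± 0.03, adjusted p = 0.0032). In pulldown RNA it had 455, 388 and 417 CPM with miR-27a and 499.7, 462 and 481 CPM with control mimic (−0.20 ± 0.08, adjusted p = 0.148). The groups did not overlap in either RNA, and the pulldown change passed without miR-27a replicate 1 (0.045). Sqle had 603, 591 and 588 CPM and 618, 569 and 583 CPM in pulldown miR-27a and control libraries, and 389, 403 and 416 CPM and 382, 389 and 374 CPM in whole-cell miR-27a and control libraries. Lss had 320.3, 350.0 and 345 CPM and 358, 341 and 354 CPM in pulldown miR-27a and control libraries, and 498, 492 and 497 CPM and 449, 481 and 476 CPM in whole-cell miR-27a and control libraries. In whole-cell RNA the miR-27a libraries lay above the controls for Lss and overlapped them for Sqle, and the log2 changes of 0.08 ± 0.03 and 0.08 ± 0.03 missed the threshold (adjusted p = 0.106 for Sqle and 0.073 for Lss). Lss passed it without control replicate 2 (0.0428) and with library totals (0.0393).

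Among the later sterol enzymes, Lbr had the largest rise in pulldown RNA. The lamin B receptor is both a protein of the inner nuclear membrane and a sterol reductase that acts after lanosterol demethylation. It had 108, 110.2 and 105 CPM in pulldown miR-27a and 77.6, 76.8 and 75.6 CPM in pulldown control libraries (0.49 ± 0.08, adjusted p = 0.000696), and 60.7, 55.9 and 54.9 CPM in whole-cell miR-27a and 50, 43.7 and 48.6 CPM in whole-cell control libraries (0.26 ± 0.06, adjusted p = 0.00144). All miR-27a libraries were above all control libraries of the same RNA. Tm7sf2, the second reductase for the same step, rose in whole-cell RNA, with 95.3, 104 and 100.4 CPM with miR-27a and 85.4, 94.4 and 88.7 CPM with control mimic (0.16 ± 0.05, adjusted p = 0.0155). Its call was lost without control replicate 3 (0.0591), miR-27a replicate 2 (0.0881) or miR-27a replicate 3 (0.0593). In pulldown RNA it had 147, 119 and 145 CPM with miR-27a and 133, 105 and 127 CPM with control mimic, which overlapped, and passed as higher without miR-27a replicate 2 (0.0119). Ebp, the sterol isomerase that precedes Sc5d, rose in whole-cell RNA, with 30.1, 28.1 and 29.5 CPM with miR-27a and 22.1, 22.1 and 24.9 CPM with control mimic (0.33 ± 0.07, adjusted p = 0.00088). In pulldown RNA Ebp had 40.8, 32.1 and 39.1 CPM with miR-27a and 36.1, 30.7 and 36.9 CPM with control mimic, which overlapped.

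Hsd17b7, a reductase of the methyl-removal complex, had 235, 291 and 252 CPM in pulldown miR-27a and 309, 288 and 301 CPM in pulldown control libraries, and 305, 291 and 304 CPM in whole-cell miR-27a and 287, 279 and 276 CPM in whole-cell control libraries. It passed the threshold only in whole-cell RNA, where it rose by 0.10 ± 0.03 (adjusted p = 0.0435), and the pulldown change was −0.21 ± 0.09 (adjusted p = 0.137). The whole-cell call was lost without control replicate 2 (0.0851) or 3 (0.17) and without miR-27a replicate 1 (0.173) or 3 (0.161), and the pulldown value passed without miR-27a replicate 2 (−0.30, adjusted p = 0.00155). Nsdhl, its partner enzyme in that complex, had 143, 132 and 124 CPM and 147, 128 and 137 CPM in pulldown miR-27a and control libraries, and 113, 115 and 118 CPM and 129.9, 117 and 121 CPM in whole-cell miR-27a and control libraries. The lanosterol demethylase Cyp51 had 1268, 1393 and 1266 CPM and 1481, 1334 and 1369 CPM in pulldown miR-27a and control libraries, and 1016, 1059 and 1027 CPM and 1075, 1049 and 1056 CPM in whole-cell miR-27a and control libraries. Dhcr7, the last reductase, had 33.2, 24.2 and 25.8 CPM and 35.2, 27.3 and 30 CPM in pulldown miR-27a and control libraries, and 19, 18.1 and 16.8 CPM and 17.7, 17.8 and 19.4 CPM in whole-cell miR-27a and control libraries. These 3 enzymes overlapped between mimics in both RNAs, and none passed the threshold.

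**Figure D3:**
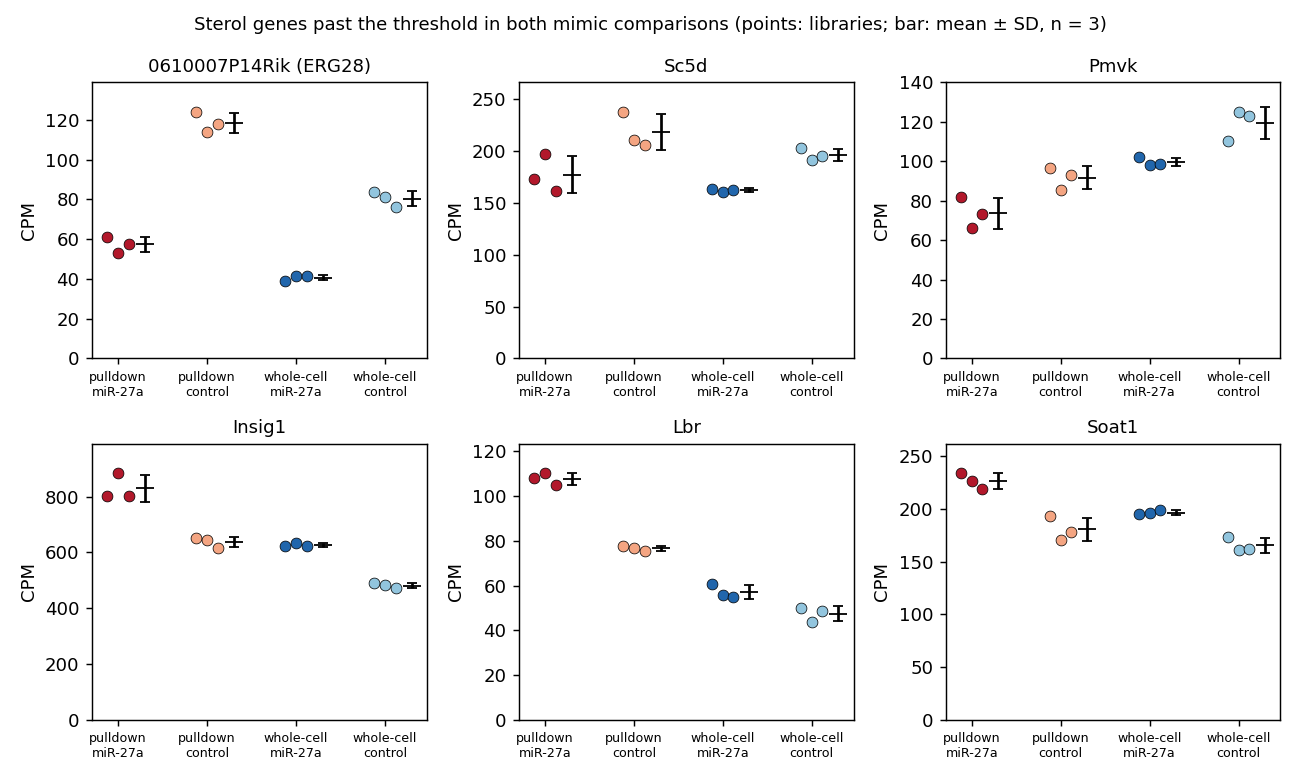
Level in CPM of the 6 members past the threshold in both mimic comparisons; points are libraries and bars the mean ± SD of 3. The miR-27a libraries lie below their controls for 0610007P14Rik, Sc5d and Pmvk and above them for Insig1, Lbr and Soat1, in pulldown and in whole-cell RNA.

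Of the 5 SREBP genes, 1 rose in pulldown RNA and 2 in whole-cell RNA. Insig1, which holds SCAP in the endoplasmic reticulum and is itself induced by SREBP, had 803, 884 and 802 CPM in pulldown miR-27a and 651, 645 and 617 CPM in pulldown control libraries (0.38 ± 0.08, adjusted p = 0.00631). In whole-cell RNA it had 624, 635 and 622 CPM with miR-27a and 490.3, 482 and 472 CPM with control mimic (0.38 ± 0.03, adjusted p = 4.06e-09). The groups stood clear of each other in both RNAs, and the pulldown call was lost without control replicate 3 (0.0683). Srebf1, whose SREBP-1c form drives fatty acid synthesis, rose in whole-cell RNA, with 129, 128 and 142 CPM with miR-27a and 104, 110.1 and 104 CPM with control mimic (0.32 ± 0.04, adjusted p = 8.85e-06). In pulldown RNA its miR-27a libraries (133, 107 and 147 CPM) spanned its control libraries (130.4, 108 and 123 CPM), for a change of 0.09 ± 0.11 that passed without miR-27a replicate 2 (0.22, adjusted p = 0.0431).

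The other SREBP genes overlapped between mimics. Srebf2, the main driver of sterol synthesis genes, had 52.2, 40.5 and 50.9 CPM and 45.6, 43.7 and 46.7 CPM in pulldown miR-27a and control libraries, and 37.9, 36.3 and 40 CPM and 37.6, 37.3 and 35.5 CPM in whole-cell miR-27a and control libraries. Scap, the escort of both factors, had 64, 51.8 and 56.7 CPM and 66.2, 54 and 57.3 CPM in pulldown miR-27a and control libraries, and 42.1, 45.7 and 47.2 CPM and 36.2, 45.4 and 40.1 CPM in whole-cell miR-27a and control libraries. Insig2, the INSIG isoform that does not depend on SREBP, had 41, 47.8 and 39.3 CPM and 45.2, 44 and 36.2 CPM in pulldown miR-27a and control libraries, and 34.5, 34.9 and 34 CPM and 34.1, 33.3 and 35.8 CPM in whole-cell miR-27a and control libraries. None of the 3 passed the threshold, and Scap passed in whole-cell RNA without control replicate 2 (0.23, adjusted p = 0.00931).

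All 4 genes of sterol traffic and storage passed the threshold in whole-cell RNA, 2 in each direction. Soat1, which esterifies cholesterol for storage, rose in both RNAs. It had 234, 227 and 219 CPM in pulldown miR-27a and 193, 171 and 178 CPM in pulldown control libraries (0.33 ± 0.08, adjusted p = 0.0136), and 195, 196 and 199 CPM in whole-cell miR-27a and 174, 161 and 162 CPM in whole-cell control libraries (0.25 ± 0.04, adjusted p = 3.56e-05). The groups did not overlap in either RNA, and the pulldown call was lost without control replicate 2 (0.0806) or 3 (0.0879). Stard4, a soluble carrier that moves cholesterol between membranes, rose in whole-cell RNA, with 71.5, 71.6 and 67.3 CPM with miR-27a and 55.7, 55.1 and 53.7 CPM with control mimic (0.35 ± 0.05, adjusted p = 7.91e-06). In pulldown RNA it had 69.8, 76.9 and 69.8 CPM with miR-27a and 66.4, 62.9 and 60.3 CPM with control mimic, groups that did not overlap but missed the threshold (0.19 ± 0.09, adjusted p = 0.177). Npc1, the membrane protein that lets cholesterol out of lysosomes, fell in whole-cell RNA, with 250.5, 248 and 247 CPM with miR-27a and 288, 295 and 298 CPM with control mimic (−0.24 ± 0.03, adjusted p = 9.44e-06). In pulldown RNA it had 318, 265 and 279 CPM with miR-27a and 350.4, 319 and 337 CPM with control mimic (−0.23 ± 0.09, adjusted p = 0.105), again without overlap, which passed without miR-27a replicate 1 (0.0162). Npc1 and Npc2, which act in sequence in the lysosome, were thus both lower in whole-cell miR-27a cells.

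In the LXR branch, Abcg1, an exporter of cholesterol to lipoproteins and a standard LXR target, rose in whole-cell RNA. It had 20.2, 18.3 and 19 CPM with miR-27a and 15.7, 16.6 and 14.5 CPM with control mimic (0.28 ± 0.08, adjusted p = 0.011), a call lost without control replicate 3 (0.066) or miR-27a replicate 1 (0.0703). In pulldown RNA it had 35.3, 33 and 36.5 CPM with miR-27a and 30.6, 29 and 29.7 CPM with control mimic (0.22 ± 0.09, adjusted p = 0.136), without overlap. Nr1h2, the receptor LXR beta, had 20.7, 20 and 23.6 CPM and 22.1, 22.7 and 21.1 CPM in pulldown miR-27a and control libraries, and 25, 21.8 and 23.9 CPM and 16.7, 22.2 and 20 CPM in whole-cell miR-27a and control libraries. It rose in whole-cell RNA (0.26 ± 0.09, adjusted p = 0.0345) although the groups overlapped, and the call was lost without control replicate 1 (0.191) or 3 (0.062) and without miR-27a replicate 1 (0.155) or 3 (0.108). Nr1h3, the receptor LXR alpha, was the lowest member, with 2.4, 1.98 and 3.58 CPM and 3.42, 2.55 and 4.85 CPM in pulldown miR-27a and control libraries, and 5.33, 3.61 and 3.04 CPM and 4.91, 5.56 and 5.14 CPM in whole-cell miR-27a and control libraries. It overlapped in both RNAs, and its whole-cell change of −0.34 ± 0.14 passed the threshold without miR-27a replicate 1 (−0.52, adjusted p = 0.0106). Apoe had 2805, 1782 and 2553 CPM and 2895, 2679.8 and 2922 CPM in pulldown miR-27a and control libraries, and 2949, 2857 and 3048 CPM and 2549, 2952 and 2768 CPM in whole-cell miR-27a and control libraries, and pulldown miR-27a replicate 2 was the lowest of all 12. Its change was −0.28 ± 0.14 in pulldown RNA and 0.10 ± 0.04 in whole-cell RNA, and neither passed the threshold, although the pulldown value passed without miR-27a replicate 1 (0.0166) and the whole-cell value without control replicate 2 (0.00412), with library totals (0.0426) and with limma voom (0.0361). Apoe is also made strongly by astrocytes, whose markers were lower with miR-27a in both RNAs, and their part in its values was not tested.

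Genes next to these in the pathway, from lists chosen by function, were counted the same way, against the shares of all genes given above (6.05% higher and 7.06% lower in pulldown RNA, 13.0% and 11.9% in whole-cell RNA). Of 15 other sterol synthesis and SREBP regulation genes tested, none passed in pulldown RNA with limma (at an unadjusted p under 0.05, 2 were higher and 2 lower, and limma voom called Sc4mol as lower, adjusted p = 0.0412), and 2 rose and 3 fell in whole-cell RNA. The share of all genes at that unadjusted cut was not counted. The isoprenoid enzyme Ggps1 (0.21 ± 0.04) and the SREBP protease Mbtps1 (0.12 ± 0.04) rose in whole-cell RNA, and the methyl oxidase Msmo1 (−0.13 ± 0.03), listed as Sc4mol, and the ubiquitin ligase Rnf139 (−0.20 ± 0.05) fell. The Mbtps1 call was lost without control replicate 3 (0.0644) or miR-27a replicate 2 (0.052). With all 12 libraries in 1 limma fit, the whole-cell calls of Ggps1 (adjusted p = 0.0907), Mbtps1 (0.301) and Sc4mol (0.187) were lost. In pulldown RNA Sc4mol (−0.27 ± 0.09, adjusted p = 0.0511) passed as lower in other limma fits too: with the replicate block (0.0103), with all 12 libraries in 1 fit (0.00285), with a filter at 5 CPM (0.0456), with a pseudocount of 0.25 CPM (0.0498) and without miR-27a replicate 2 (0.00241).

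Of 15 fatty acid synthesis and desaturation genes, many of them SREBP-1 targets, 5 fell in pulldown RNA, and 5 fell and 3 rose in whole-cell RNA. Acly, which makes the acetyl-CoA for both sterols and fatty acids, had 552, 535 and 553 CPM in pulldown miR-27a and 731, 709 and 765 CPM in pulldown control libraries, and 719, 722 and 721 CPM in whole-cell miR-27a and 896, 959 and 956 CPM in whole-cell control libraries. It fell in both, with log2 changes of −0.43 ± 0.08 and −0.38 ± 0.03 and no overlap in either RNA. Gpam, which starts triglyceride and phospholipid synthesis, changed by −0.54 ± 0.08 in pulldown and −0.34 ± 0.03 in whole-cell RNA, and the desaturase Fads1 by −0.39 ± 0.09 and −0.23 ± 0.03, and all 4 of these values passed the threshold. Of the 5 pulldown calls, 3 were lost without single libraries: Fads1 without control replicate 1 (0.0574) or 3 (0.066), Acaca without control replicate 2 (0.171) or 3 (0.119) or miR-27a replicate 3 (0.161), and Me1 without control replicate 1 (0.145), 2 (0.054) or 3 (0.102) or miR-27a replicate 3 (0.113). Of 10 LXR partners, targets and efflux genes, 2 fell in pulldown RNA and 1 rose and 1 fell in whole-cell RNA. The pulldown call of the phospholipid enzyme Lpcat3 (−0.29) was lost without control replicate 1 (0.193), 2 (0.0898) or 3 (0.126) or miR-27a replicate 3 (0.108), and the whole-cell call of Smpdl3a (0.19) without control replicate 3 (0.072). The exporter Abca1, like Abcg1 an LXR target, had 269.7, 252 and 268 CPM in pulldown miR-27a and 421, 451 and 441 CPM in pulldown control libraries, and 313, 305 and 301 CPM in whole-cell miR-27a and 456, 454 and 445 CPM in whole-cell control libraries. Abca1 fell in both, with log2 changes of −0.73 ± 0.08 (adjusted p = 2.25e-05) and −0.56 ± 0.03 (adjusted p = 1.19e-11), while Abcg1 was higher in the same libraries. Abca1 holds an 8mer at base 2459 of 3156 in its only annotated 3′ UTR, and Abcg1 a 7mer in 1 of 3. The part of these sites in the changes was not tested. Of 16 lipoprotein receptor, lysosomal, sterol transfer and oxysterol genes tested, 1 rose in pulldown RNA and 2 rose and 2 fell in whole-cell RNA, where the call of the receptor Lrp1 (−0.18) was lost without control replicate 2 (0.129) or 3 (0.131) or miR-27a replicate 2 (0.253) or 3 (0.0928). Lipa, the lysosomal acid lipase that frees cholesterol from its esters, had 43.1, 33.4 and 37.4 CPM in pulldown miR-27a and 25.7, 23.7 and 22.5 CPM in pulldown control libraries, and 19.6, 23 and 23.1 CPM in whole-cell miR-27a and 15.6, 16.7 and 14.9 CPM in whole-cell control libraries. Lipa rose by 0.64 ± 0.11 and 0.45 ± 0.08 with no overlap, so it was higher with miR-27a where Npc1 and Npc2 were lower in whole-cell RNA. With the replicate block in pulldown RNA, 4 more genes of these lists passed: Scarb1 (0.024) and Rxra (0.0475) as higher, and Acss2 (0.0495) and Sc4mol as lower.

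The promoters were read for the classical sterol response element and for an E-box, because SREBP proteins are known to bind both. RefSeq promoters (GRCm38.p6, 250 bases before to 50 after the annotated start) were matched for 26 of the 32 members. Fdps, Fdft1, Sqle, Npc1, Stard4 and Abcg1 had no matched promoter, so their elements were not searched. On either strand, TCACNCCAC was found in 1 of the 26, Hmgcs1, and in 1.44% of 27025 genes. The E-box CACGTG was found in 5 of the 26 (19.2%), against 8.09% of genes. CCAAT was found in 20 of the 26 (76.9%), against 41.06% of genes, and DR4 in 0 of the 26, against 0.01% of genes. No test was made of these differences. The matches to the sterol response element and the E-box, in capitals, are shown with 10 bases on either side.
Hmgcs1 sterol response element: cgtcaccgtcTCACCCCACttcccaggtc
Insig1 E-box: tgggtgaggtCACGTGgctccggtgg
Hsd17b7 E-box: acccttgtgtCACGTGgctccgcccc
Sc5d E-box: acgcggcgacCACGTGaccgccgcga
Scap E-box: ccgccgggagCACGTGtggagggcgg
Dhcr7 E-box: ctgtgatgaaCACGTGgcaaaaagca

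The windows lie on the plus strand for Hmgcs1 (chr13:119690204-119690232), Insig1 (chr5:28071301-28071326), Scap (chr9:110333306-110333331) and Dhcr7 (chr7:143823225-143823250), and on the minus strand for Hsd17b7 (chr1:169969333-169969358) and Sc5d (chr9:42264383-42264408). The 5 genes with an E-box did not move together with miR-27a: in whole-cell RNA Insig1 and Hsd17b7 rose, Sc5d fell, and Scap and Dhcr7 did not pass the threshold. The Dhcr7 match lies in 1 of 3 annotated promoters.

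Pulldown and whole-cell RNA differed more than the mimics did, and here the members sorted by the kind of protein they encode. With miR-27a mimic 16 members were higher and 10 lower in pulldown than in whole-cell RNA, where 29.3% of 13875 tested genes were higher and 30.9% lower, 60.2% in all. With control mimic 16 were higher and 8 lower, where 31.7% were higher and 30.3% lower, 62.0% in all. Scaled by library totals in place of the deposited scaling, 17 members were higher and 7 lower with miR-27a mimic (5009 and 3312 of all genes, against 4064 and 4286), and 21 and 7 with control mimic (5176 and 3401, against 4392 and 4209). Under both mimics 15 members were higher and 7 lower, and none was called in opposite directions. The comparisons share no library, but 1 estimate of spread from all 12 libraries served both.

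The 10 members that encode soluble proteins and the 22 that encode membrane or secreted proteins went different ways. Of the soluble group, 7 were lower with miR-27a mimic, and 1 was higher and 7 lower with control mimic, with median log2 changes of −0.44 and −0.37. Of the membrane or secreted group, 16 were higher and 3 lower with miR-27a mimic and 15 were higher and 1 lower with control mimic, with medians of 0.33 and 0.34. The medians of all tested genes were −0.01 and 0.02. This grouping was made after the values had been seen, so it is a description without a test.

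Hmgcs1 and Idi1, both soluble, were the members lowest in pulldown relative to whole-cell RNA, with log2 changes of −0.73 ± 0.06 and −0.76 ± 0.07 with miR-27a mimic and −0.74 ± 0.06 and −0.75 ± 0.07 with control mimic. Every pulldown library was below every whole-cell library for both enzymes. Among membrane proteins, Lbr was higher in pulldown by 0.91 ± 0.07 with miR-27a and 0.68 ± 0.07 with control mimic, and Abcg1 by 0.83 ± 0.08 and 0.89 ± 0.08. Dhcr7 (0.59 ± 0.11 and 0.72 ± 0.11), Sqle (0.56 ± 0.05 and 0.63 ± 0.05) and 0610007P14Rik (0.49 ± 0.07 and 0.56 ± 0.07) were higher too. Lss, whose protein sits in the membrane surface, was the exception among these enzymes that was lower under both mimics (−0.55 ± 0.06 and −0.41 ± 0.06).

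The smaller differences depended on single libraries. With miR-27a mimic the calls lost in this way were those of Npc1 (without pulldown miR-27a replicate 1, adjusted p = 0.0573), Mvk (without whole-cell miR-27a replicate 3, 0.093, or pulldown miR-27a replicate 2, 0.119), Apoe (without the same libraries, 0.0573 and 0.0584) and Nsdhl (without whole-cell miR-27a replicate 1, 0.0568, or pulldown miR-27a replicate 1, 0.0663). Nr1h3 (−0.45, adjusted p = 0.0534) passed as lower without whole-cell miR-27a replicate 3 (0.0257), pulldown miR-27a replicate 3 (0.0157) or pulldown control replicate 2 (0.0415) or 3 (0.039). With control mimic Stard4 was lost without pulldown control replicate 1 (0.0548), and Insig2 without pulldown control replicate 1 (0.0721) or 2 (0.0549). Npc1 was lost there without whole-cell control replicate 1 (0.0501) or pulldown control replicate 1 (0.066). Nsdhl was lost without any 1 of 7 libraries, up to 0.194 without pulldown control replicate 1, and Nr1h3 without any 1 of 6, up to 0.236 without pulldown control replicate 2. Gained in the same way, each without 1 to 3 single libraries in turn, were Fdft1 (lower) and Sc5d (higher) with miR-27a mimic, and Soat1, Srebf1 and Sc5d (higher) with control mimic.

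Other RNAs moved with this difference. The female-specific RNA Xist was 315 to 407 CPM and 324 to 364 CPM in pulldown libraries with miR-27a and control mimic, against 95 to 104 CPM and 109.6 to 119 CPM in whole-cell libraries. The Y-linked Ddx3y was 24.7 to 41.6 CPM and 28.9 to 33.0 CPM in pulldown libraries, against 131 to 133 CPM and 121 to 133 CPM in whole-cell libraries. The labels do not say whether pulldown and whole-cell RNA came from the same cells. Summed OPC markers were higher and summed oligodendrocyte and astrocyte markers lower in the pulldown, as given above, and 4 nuclear RNAs summed to 4562 to 6928 CPM and 5893 to 6722 CPM there, against 10736 to 11373 CPM and 11653 to 13509 CPM in whole-cell RNA. Most of that sum was Malat1, at 4353 to 6579 CPM and 5637 to 6449.5 CPM in the pulldown. Malat1, Neat1 and Meg3 were each lower in the pulldown. Miat was higher there, with 142 to 243 CPM and 203 to 228 CPM, against 113 to 127 CPM and 97.3 to 107 CPM. Capture by the tag and these differences between the libraries cannot be told apart.

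**Figure D4:**
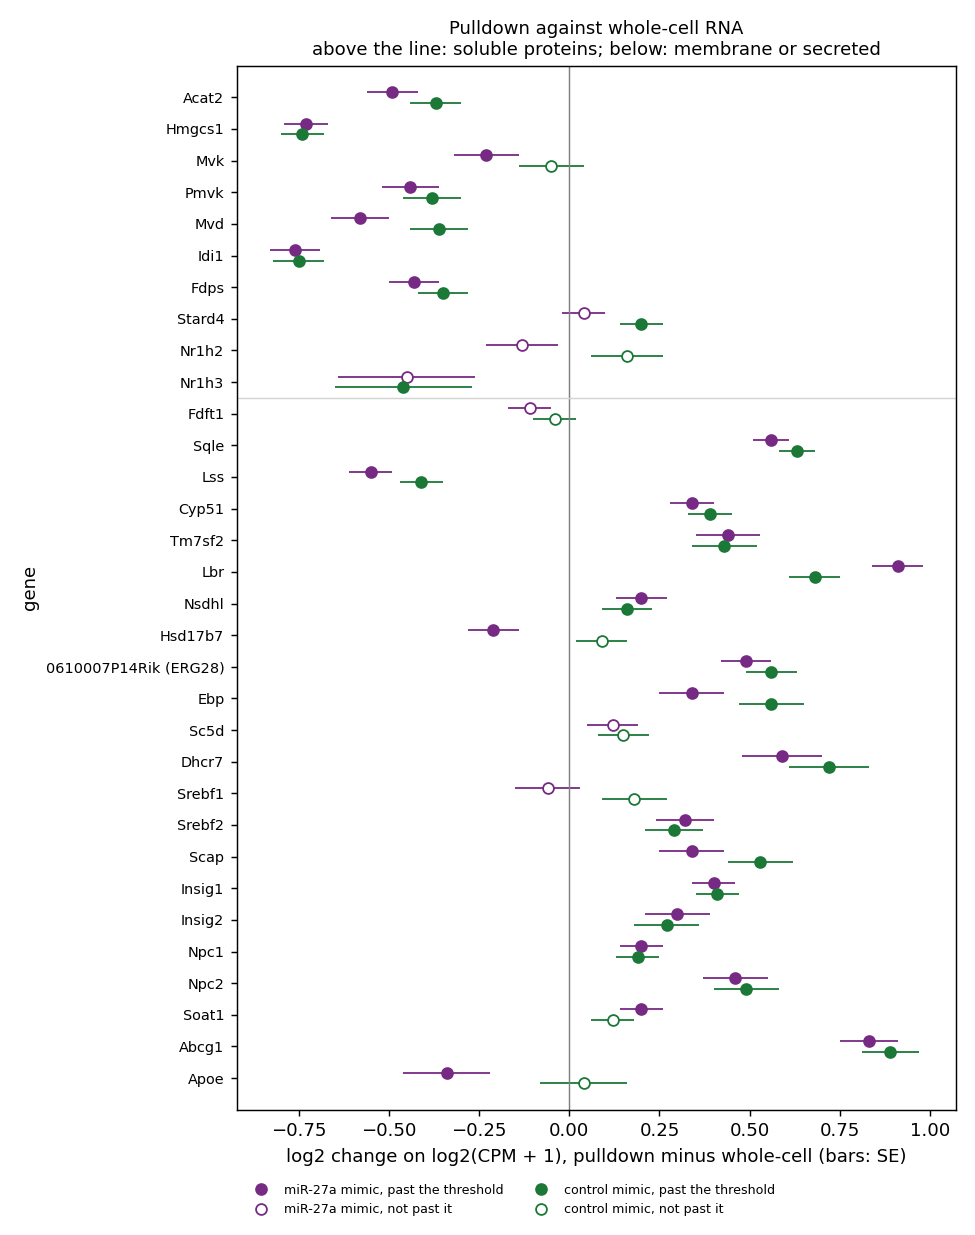
Log2 change in pulldown against whole-cell RNA for each member with miR-27a mimic (purple) and control mimic (green), with standard errors; filled points passed an adjusted p of 0.05, and the grey line separates soluble from membrane or secreted proteins. Most soluble proteins lie left of 0 (medians −0.44 and −0.37) and most membrane or secreted proteins right of it (medians 0.33 and 0.34).

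Whether miR-27a changed capture was read from the difference between the mimic change in pulldown RNA and that in whole-cell RNA. None of the 32 members passed the threshold with limma, where 0.339% of 13875 genes were higher and 0.735% lower, 1.07% in all. Limma voom on the recovered reads called none. At an unadjusted limma p under 0.05, 1 member was higher and 2 were lower, and the share of all genes at that cut was not counted. The members' differences ran from −0.38 for Apoe to 0.22 for Lbr, and 23 of 32 lay below 0, where the median over all tested genes was −0.013. The gene with the largest mimic change, 0610007P14Rik, differed by −0.07 ± 0.10 (adjusted p = 0.814), and the other 2 with an 8mer, Sc5d and Npc2, by −0.03 ± 0.10 and −0.02 ± 0.12. Single libraries gave 2 calls: Hsd17b7 was lower without pulldown miR-27a replicate 2 (−0.39, adjusted p = 0.00123) and Apoe was lower without pulldown miR-27a replicate 1 (−0.51, adjusted p = 0.0466).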

How the data were processed

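RNA of 12 libraries (4 groups of 3, as labelled) was sequenced by the authors as paired-end reads. Per the series' design text, the authors trimmed reads with skewer, aligned them to GRCm38 with HISAT2, counted genes with featureCounts and normalized with edgeR; mm8 is also named in the submitters' processing notes, with no role. The sources used here give neither tool versions nor the strand setting of the counting. The deposited values are log2 CPM, scaled by the authors, and whole reads were recovered from them (100% of values within 0.01 read). At 15548418 to 24972188 reads a library, 3 reads equal 0.116 to 0.2 CPM; such floors cover counting error only.

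Levels are CPM. Genes reaching 1 CPM in 3 or more of the libraries fitted were tested with limma 3.58.1 (R 4.3.3; trend) on log2(CPM + 1), two-sided, with Benjamini-Hochberg adjustment over all tested genes and a threshold of 0.05. Fold changes on this scale understate those of low genes. Each mimic comparison used its 6 libraries, and pulldown against whole-cell RNA and the difference of mimic changes used all 12. Scripts were tested on simulated data. Tables and figures used Python 3.11.15, pandas 2.3.3, numpy 2.4.6 and matplotlib 3.10.9. No pair of replicates agreed within sampling noise.

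Same-numbered miR-27a and control libraries deviated together in pulldown RNA (r = 0.107 to 0.275 over genes in all 3 pairs) and not in whole-cell RNA (−0.034 to 0.001), so a replicate block was given for pulldown RNA. Other alternatives were the pseudocount, the filter, scaling by library totals or median of ratios, limma voom on recovered reads, 1 fit of all 12 libraries, and leaving out each library.

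Members and lists were chosen with earlier results of these data known. All members are named, and up to 4 genes of each other list per comparison, by smallest p among those past the threshold, plus Abca1; other genes of this rule are not reported here. For 12 members an exon overlaps another annotated gene, so their reads may be shared. For 7 of them the overlap is only on the opposite strand (Hmgcs1, Idi1, Fdft1, Lss, Cyp51, Scap and Npc1). For 5 it is on the same strand for at least 1 gene (Fdps, Tm7sf2, Lbr, Srebf1 and Nr1h3).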

Additional observations from a re-analysis of the deposited data

Results flagged for a closer look

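One gene of the neighbouring lists, the fatty acid synthesis enzyme Acaca (acetyl-CoA carboxylase), had mimic changes of opposite sign in the 2 RNAs, with a difference that passed the threshold narrowly. It had 429, 373 and 369.7 CPM in pulldown miR-27a and 444, 545 and 481 CPM in pulldown control libraries, and 190.4, 186 and 180.1 CPM in whole-cell miR-27a and 169, 175 and 173 CPM in whole-cell control libraries. The miR-27a libraries were below their controls in pulldown RNA (−0.32 ± 0.09) and above them in whole-cell RNA (0.10 ± 0.04), and the difference of the changes was −0.43 (adjusted p = 0.0482 from limma over all genes). The adjusted p ran from 0.00605 to 0.156 over the alternatives, and the call was lost without any 1 of 9 of the 12 libraries and also with no filter on low values (0.119), with library totals (0.0602), with median-of-ratios scaling (0.0602) and with limma voom (0.0604). The whole-cell rise on its own lost its limma call without control replicate 1 (adjusted p = 0.0757) or 3 (0.0907) or miR-27a replicate 1 (0.197) or 2 (0.0857). It was also lost with no filter (0.0623), median-of-ratios scaling (0.0562), the replicate block (0.0705) and all 12 libraries in 1 fit (0.432).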

How the results depend on the processing

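No member's call was reversed by any alternative. In whole-cell RNA 10 of 18 member calls held under every alternative (Pmvk, Lbr, 0610007P14Rik, Ebp, Sc5d, Srebf1, Insig1, Npc1, Stard4 and Soat1), in pulldown RNA 2 of 6, and in pulldown against whole-cell RNA 21 of 26 with miR-27a and 19 of 24 with control mimic. Members higher with miR-27a in whole-cell RNA numbered 12, against 7 with all 12 libraries in 1 fit, 14 with limma voom (Fdps and Apoe added) and 15 with library totals (Lss added as well). Lost in that 1 limma fit were the rises of Acat2 (adjusted p = 0.314), Mvd (0.247), Tm7sf2 (0.302), Nr1h2 (0.121) and Hsd17b7 (0.438). With all 12 libraries in 1 limma fit, the lower calls of Fdft1 (adjusted p = 0.192) and Npc2 (0.394) in whole-cell RNA were lost as well. So were the whole-cell calls of Smpdl3a (0.131) and Lrp1 (0.355) from the neighbouring lists. With no filter on low values, Mvd (0.108), Nr1h2 (0.113) and Hsd17b7 (0.075) lost their whole-cell calls, and Hsd17b7 also with median-of-ratios scaling (0.0642). Members lower in pulldown RNA numbered 3, against 1 with no filter on low values, 1 with library totals, 6 with the replicate block and 6 with all 12 libraries in 1 fit; with no filter and with library totals Pmvk and Sc5d were the calls lost. Over all genes that block raised the pulldown calls to 1274 higher and 1469 lower, against 822 and 959 without it, and 1 fit of all 12 libraries gave 1403 and 1648 there and 760 and 655 in whole-cell RNA, against 1736 and 1599. In whole-cell RNA, where the numbers share no deviation, the replicate block left 11 members higher and 6 lower (Hsd17b7 was lost, adjusted p = 0.0715); with it Nr1h3 passed in pulldown against whole-cell RNA with miR-27a (0.0472), and beyond these and the 3 pulldown gains the block changed no other member's call. Leaving out 1 library gave 7 to 15 higher and 5 to 7 lower in whole-cell RNA, 1 to 5 higher and 1 to 6 lower in pulldown RNA, 14 to 17 higher and 8 to 11 lower in pulldown against whole-cell RNA with miR-27a, and 12 to 19 higher and 7 to 8 lower with control mimic. For the difference of mimic changes it gave 0 higher and 0 to 1 lower. Every member had at least 1 CPM in every library; the effect of depth was not tested. Nr1h3, the lowest, lost its call in pulldown against whole-cell RNA with control mimic with a pseudocount of 0.25 CPM (0.0528), with no filter (0.12) and with library totals (0.0939).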
